A study of Mus musculus with 3 samples.

Results

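The 10 genes described here encode the chaperones and co-chaperones that handle steroid hormone receptors: Fkbp4, Fkbp5, Ptges3, Hsp90aa1, Hsp90ab1, Stip1, Hspa8, Dnajb1, Bag1 and Stub1. They were chosen by name, with earlier results of these data known. Every peak of open chromatin overlapping the annotated span of such a gene, or 10 kb on either side of it, was taken with the gene. That gave 14 of the 12413 peaks in the list, and 10 of 21523 protein-coding genes. The peaks come from FAIRE-seq, which enriches DNA that is free of nucleosomes, in whole uteri of untreated wild-type C57BL/6J mice aged 6 to 10 weeks and mated with fertile males. The labels give 3 mice on gestation day 4, a single group with no control group. Only 1 peak list was analysed and it names no mouse, so errors between animals cannot be given, and the depth behind each value is unknown.

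A steroid receptor without hormone is folded and held ready by a relay of chaperones. Hsp70 and its J-protein partner take the receptor first, Hop hands it to Hsp90, and the mature complex carries p23 and an immunophilin. Among immunophilins, Fkbp52 (the product of Fkbp4) raises progesterone receptor activity and is needed for uterine receptivity in mice, whereas Fkbp51 (the product of Fkbp5) restrains the receptor and is itself induced by progestins and glucocorticoids. Open chromatin at a gene is not a measure of its expression.

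Each of the 10 genes had a peak overlapping the window of 1 kb around an annotated gene end, against 44.5% of all protein-coding genes. By the wider rule of the gene span with 10 kb on either side the count was again 10 of 10, against 57.6% of all protein-coding genes. The background covers every protein-coding gene, whether or not the uterus expresses it. Of the 14 peaks, 11 lay at an end of a chaperone gene and the other 3 lay at the ends of neighbouring genes. In the whole span 7 genes had a single peak, 2 had 2 and 1 had 3. A single peak was also usual elsewhere, at 65.5% of the protein-coding genes with any peak in that span. No gene had a peak at both of its ends, a count that was not made over all genes.

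Peak strength is given as the authors' fold enrichment, taken here as the signal at the summit over a local background, and the pileup, taken as the height of that signal. Across the 10 genes the strongest gene-end peak had a median fold of 9.99, compared with 6.33 over the 9576 protein-coding genes with such a peak. The median pileup was 128.5 against 61, and the median width 684 bp against 469 bp. In order, the folds were 12.3 at Dnajb1, 12.1 at Hsp90aa1, 11.4 at Fkbp4, 11.3 at Fkbp5, 10.00 at Ptges3, 9.97 at Hspa8 and 9.08 at Bag1. Stub1 followed at 7.13, Hsp90ab1 at 6.31 and Stip1 at 4.24. Thus 7 of 10 genes lay at or above the upper quartile of 8.34, against 25% of genes with a gene-end peak by construction. That threshold was chosen after the values were seen. Hsp90ab1 and Stip1 were below the median. Without a spread between mice, the order of neighbours such as Fkbp4 and Fkbp5, or Ptges3 and Hspa8, is not resolved. In a whole uterus, a lower peak in every cell and a peak present in fewer cells cannot be told apart.

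**Figure D1:**
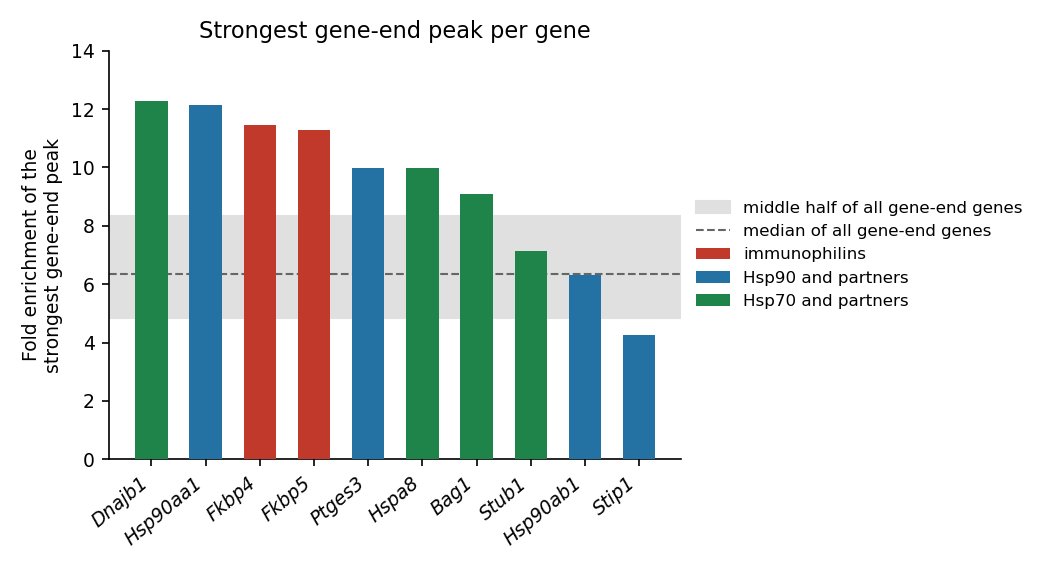
Fold enrichment (vertical axis, no unit) of the strongest gene-end peak of each of the 10 genes, as bars coloured by role. The grey band spans the lower to the upper quartile (4.85 to 8.34) and the dashed line the median (6.33) over 9576 protein-coding genes. The bars of 7 genes end above the band, Stip1 ends below it, and no error bar is drawn because the list gives no value per mouse.

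The local background computed from pileup and fold ran from 9.37 at Stip1 to 13.2 at Hsp90aa1 and Stub1. Its median over the strongest gene-end peaks of the 10 genes was 11.9, against 8.59 over all peaks. The latter set holds peaks of any position and strength, and no median was taken over the strongest gene-end peaks of all genes. Hsp90aa1 and Stub1 thus shared the same background, and their folds of 12.1 and 7.13 came from pileups of 171 and 100.

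The receptor immunophilins had closely similar peaks. Fkbp4 carried 1 peak (chr6:128438022-128438882, build GRCm38), 861 bp wide, with a pileup of 148. Its summit lay 16 bp outside the annotated end, and the peak reached 634 bp into the gene. Fkbp5 carried 1 peak (chr17:28485450-28486388), 939 bp wide, with a pileup of 154. Its summit lay 9 bp outside the gene, and the peak reached 699 bp inside. In fold they stood at percentiles 95.5 and 94.9 of the genes with a gene-end peak, and in width at percentiles 93.4 and 96.1. The genes themselves differ in size: Fkbp4 spans 8.55 kb and Fkbp5 87.4 kb. Progestin- and glucocorticoid-responsive elements are known from introns of Fkbp5. No peak was listed in the rest of its span or within 10 kb. Call threshold and depth are unknown, so an unlisted site cannot be read as closed chromatin. Fkbp4 stood alone on its chromosome stretch, with the next peak 67.1 kb away on the side of lower coordinates and 2949 kb away on the other. At Fkbp4 the window of 1 kb also held an end of the non-coding gene Gm10069.

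Upstream sequences of both genes are shown because their peaks cover nearly all of the promoter. The 250 bases before the RefSeq transcript start are given 5′ to 3′ on the minus strand, from build GRCm38.p6, at chr6:128438657-128438906 for Fkbp4 and chr17:28486150-28486399 for Fkbp5. Capitals mark matches to the CCAAT box (CCAAT, or ATTGG on the other strand), the GC box (GGGCGG or CCGCCC), the TATA box (TATAAA) and the core of a heat shock element (GAANNTTC or TTCNNGAA).
Fkbp4: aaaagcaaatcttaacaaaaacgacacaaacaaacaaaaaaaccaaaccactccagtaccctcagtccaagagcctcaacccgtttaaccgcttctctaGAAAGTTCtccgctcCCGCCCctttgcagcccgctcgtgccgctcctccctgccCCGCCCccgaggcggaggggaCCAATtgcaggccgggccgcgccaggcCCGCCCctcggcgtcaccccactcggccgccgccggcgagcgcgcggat
Fkbp5: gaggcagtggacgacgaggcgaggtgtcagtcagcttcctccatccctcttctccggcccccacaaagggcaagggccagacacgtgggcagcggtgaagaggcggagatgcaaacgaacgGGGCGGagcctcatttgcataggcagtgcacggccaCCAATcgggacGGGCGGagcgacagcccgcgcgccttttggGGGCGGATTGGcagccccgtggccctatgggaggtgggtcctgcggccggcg
The Fkbp4 promoter held 3 GC boxes and 1 CCAAT box, which began 76 bases before the start. It also held a heat shock core, GAAAGTTC, beginning 151 bases before the start and 132 bp from the summit. The Fkbp5 promoter held 2 CCAAT boxes, beginning 93 and 46 bases before the start, with a GC box 52 bases before the start directly adjoining the second. It had 3 GC boxes upstream and 1 just after the start. All of these matches lay inside the peaks. Neither window held AGAACA, a single arm of the steroid response element, on either strand.

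Genes with gene-end peaks nearest to these in log2 fold, log2 pileup and log2 width were found by Euclidean distance over 9576 genes in this 1 list. For Fkbp4 they were Wwc2 (fold 11.1, distance 0.048), and Map4k5 and Atl1, which share 1 peak (fold 10.9, distance 0.088). For Fkbp5 they were Btbd1 (fold 11.1, distance 0.038), Eea1 (11.0, 0.055) and Sppl3 (11.2, 0.058). Fkbp5 itself lay at a distance of 0.139 from Fkbp4, with 20 other genes closer.

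Hsp90, the chaperone at the centre of the receptor complex, is encoded by a stress-inducible gene, Hsp90aa1, and a constitutive gene, Hsp90ab1, and their peaks had different shapes. Hsp90aa1 carried 1 broad peak (chr12:110695875-110696723) of 849 bp with a pileup of 171, the highest of the 10 genes. Its summit lay 88 bp outside the gene. Hsp90ab1 carried 2 narrow peaks at the same end, separated by 190 bp. The outer peak (chr17:45573230-45573498, 269 bp, fold 6.31, pileup 71) had its summit 117 bp outside the gene. The inner peak (chr17:45572697-45573039, 343 bp, fold 4.94, pileup 56) had its summit 372 bp inside. The strongest Hsp90aa1 peak was thus 1.92 times the strongest of Hsp90ab1 in fold. An end of the non-coding gene Gm35399 lay in the same window as both Hsp90ab1 peaks. Another peak within 10 kb of Hsp90ab1 (chr17:45563763-45564397, fold 9.87) was stronger than either. Its summit, however, lay 49 bp from an end of Slc35b2, a nucleotide sugar transporter gene, and 3816 bp from Hsp90ab1. The window of Nfkbie also overlapped this peak, with that gene's nearest end 793 bp from the summit.

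Ptges3 encodes p23, which binds the ATP-bound, closed form of Hsp90 and stabilises the receptor complex. Its peak (chr10:128058695-128059405) was 711 bp wide, with a pileup of 137 and a fold of 10.00, and its summit lay 28 bp before the start. The promoter window had the highest GC content of the 7 with sequence, 73.7%, and held 4 GC boxes with no CCAAT box and no heat shock core. The other peak within 10 kb (chr10:128083176-128083434, fold 3.88) had its summit 11 bp from an end of Atp5b, an ATP synthase subunit gene, and 6042 bp from Ptges3.

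Stip1 encodes Hop, the adaptor that links Hsp70 to Hsp90, and among the strongest gene-end peaks of the 10 genes its peak had the lowest fold and the summit farthest from the gene's end. The peak (chr19:7039561-7040026) was 466 bp wide with a pileup of 43 and a fold of 4.24, at percentile 14.1 of the genes with a gene-end peak. It began exactly at the annotated start and ran 465 bp into the gene, with its summit 297 bp inside. Among 7206 transcript starts lying inside a peak anywhere in the list, 1.17% had a peak reaching 10 bp or less upstream. Summits at least as far downstream of the start as at Stip1 were found for 3.65% of those starts.

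The Stip1 promoter is shown because all of its motif matches before the start lie in sequence that the peak does not cover. It is given 5′ to 3′ on the minus strand, chr19:7040027-7040276 of GRCm38.p6, with capitals as before.
Stip1: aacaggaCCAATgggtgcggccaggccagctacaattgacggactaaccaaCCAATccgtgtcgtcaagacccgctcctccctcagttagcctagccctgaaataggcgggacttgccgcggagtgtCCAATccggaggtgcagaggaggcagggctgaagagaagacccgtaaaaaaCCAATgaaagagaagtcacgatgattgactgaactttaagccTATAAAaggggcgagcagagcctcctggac
It held 4 CCAAT boxes, beginning 243, 199, 123 and 72 bases before the start, and a TATA box beginning 30 bases before the start. These 5 matches all lay outside the peak, at 325 to 538 bp from its summit. A GC box after the start lay inside the peak. Stip1 was the only gene of the 7 with a TATA box match, and its window had the lowest GC content, 56.3%.

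**Figure D2:**
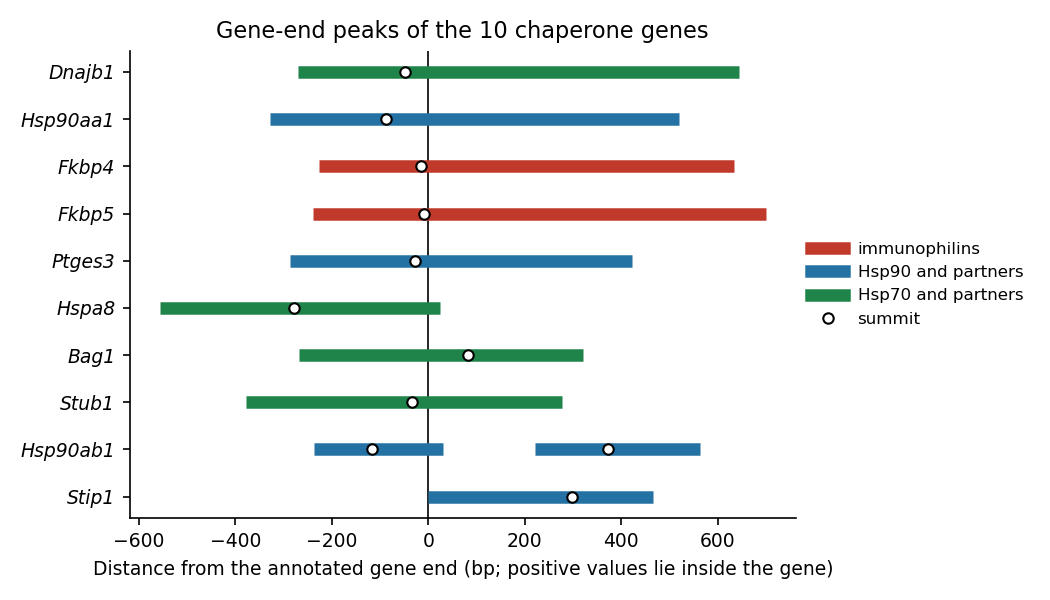
Extent of each gene-end peak (bar) and its summit (circle) relative to the nearest annotated end of the gene, in bp on the horizontal axis, with positive values inside the gene and genes ordered by fold. At 8 genes the summit of the strongest peak lies outside the gene, and at Bag1 and Stip1 it lies inside. The same count was not made over all genes. Over 7206 transcript starts inside a peak, the summit lay at a median of 8 bp from the start (quartiles -57 and 78 bp, positive values downstream). Hsp90ab1 shows 2 bars with a gap of 190 bp.

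Hsp70 and its partners act first on the receptor and also decide whether it is folded or degraded. Dnajb1 encodes an Hsp40, a J protein that delivers clients to Hsp70 and stimulates its ATPase. It had the highest fold of the 10 genes, 12.3, at rank 232 of 9576 genes with a gene-end peak. Its peak (chr8:83607904-83608819) was 916 bp wide with a pileup of 156 and covered both annotated starts of the gene, the summit lying 48 bp before the first. An end of the non-coding gene Gm42029 lay in the same window.

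Hspa8 encodes Hsc70, the constitutive Hsp70 of the cytosol. Its peak (chr9:40800720-40801300) was 581 bp wide with a pileup of 120, and it lay almost wholly outside the gene. It reached 556 bp outside and 24 bp inside, with the summit 279 bp outside, the largest outward offset of the 10 genes. No other peak was listed within 114.7 kb on the side of lower coordinates or 158.8 kb on the other.

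Bag1, a nucleotide exchange factor that releases clients from Hsp70, had a peak of 590 bp (chr4:40947973-40948562) with a pileup of 94 and a fold of 9.08. Its summit lay 83 bp inside the gene. The same peak overlapped the window of Chmp5, an endosomal sorting gene whose annotated end lies 259 bp from that of Bag1, and the summit was 342 bp from the end of Chmp5. The peak may therefore belong to either gene or to both.

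Stub1 encodes CHIP, a ubiquitin ligase that marks Hsp70- and Hsp90-bound clients for degradation. Its peak (chr17:25832641-25833297) was 657 bp wide with a pileup of 100 and a fold of 7.13, the summit lying 33 bp before the start. The window of Jmjd8 overlapped the same peak, with that gene's nearest end 1109 bp from the summit. Another peak within 10 kb (chr17:25836979-25837260, fold 4.84) had its summit 2 bp from an end of Rhbdl1, a rhomboid protease gene, and 4210 bp from Stub1.

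Dnajb1 and Stub1 promoters are shown as the strongest peak of this branch and as the second promoter with a heat shock core. Dnajb1 is given on the plus strand, chr8:83607925-83608174, and Stub1 on the minus strand, chr17:25832920-25833169, both 5′ to 3′ from GRCm38.p6 with capitals as before.
Dnajb1: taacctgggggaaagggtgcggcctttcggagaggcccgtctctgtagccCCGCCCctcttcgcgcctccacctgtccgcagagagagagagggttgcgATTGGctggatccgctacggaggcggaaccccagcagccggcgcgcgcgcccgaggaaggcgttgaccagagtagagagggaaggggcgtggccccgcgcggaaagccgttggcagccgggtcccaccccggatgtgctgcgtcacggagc
Stub1: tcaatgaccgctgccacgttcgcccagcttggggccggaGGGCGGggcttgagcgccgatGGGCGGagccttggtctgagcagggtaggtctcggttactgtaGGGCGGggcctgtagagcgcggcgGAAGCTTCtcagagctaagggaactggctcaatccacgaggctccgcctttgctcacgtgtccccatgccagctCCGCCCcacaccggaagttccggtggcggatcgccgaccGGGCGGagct
The Dnajb1 promoter held a CCAAT box beginning 151 bases before the start and a GC box beginning 200 bases before it, with 1 more of each just after the start. The Stub1 promoter held 5 GC boxes, the nearest beginning 10 bases before the start, and the heat shock core GAAGCTTC beginning 123 bases before the start and 87 bp from the summit.

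Width and strength together separated 4 of the genes from the rest. Dnajb1, Hsp90aa1, Fkbp4 and Fkbp5 had peaks of 849 to 939 bp with folds of 11.3 to 12.3 and pileups of 148 to 171. These peaks reached 226 to 328 bp outside the gene and 520 to 699 bp inside. The outward reach was not particular to them. Ptges3 (287 bp), Bag1 (268 bp) and the outer peak of Hsp90ab1 (237 bp) fell in the same range. Nor were width and strength: the peak shared by Hspd1 and Hspe1, of the wider pathway, had 922 bp, fold 11.6 and pileup 159. The 4 were grouped after their values were seen, and no test was made of them. Ptges3, Hspa8, Bag1 and Stub1 formed a middle range of 581 to 711 bp and folds of 7.13 to 10.00. Over the 10 genes, 8 peaks were wider than the median of 469 bp. Hsp90ab1, with its 2 separate peaks, and Stip1 were the exceptions, at 269 and 466 bp.

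**Figure D3:**
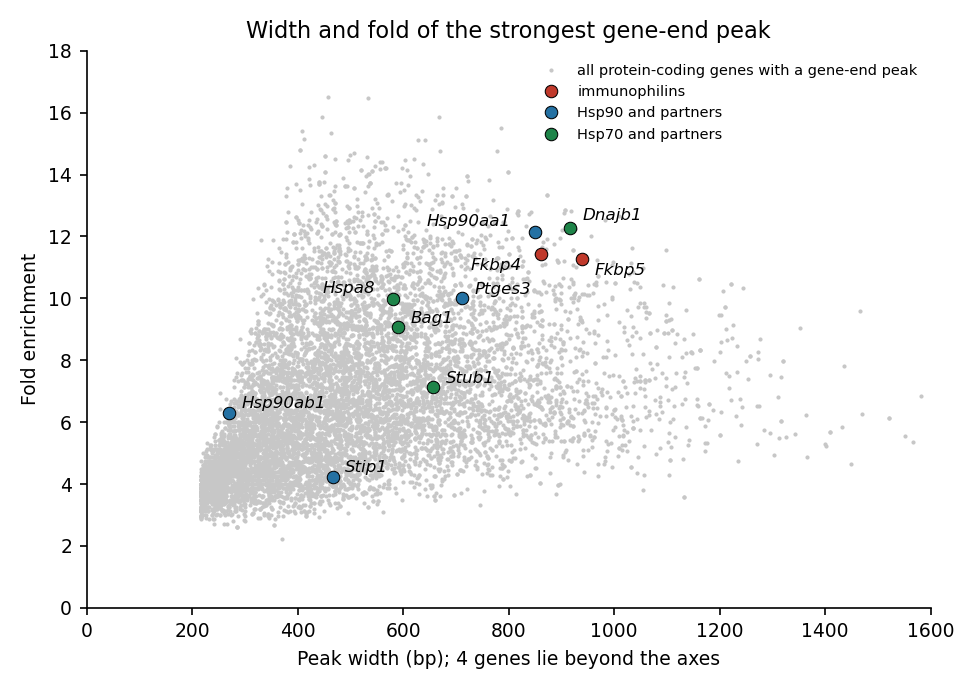
Width (horizontal axis, bp) and fold enrichment (vertical axis) of the strongest gene-end peak. Grey points are 9576 protein-coding genes, of which 4 lie beyond the axes, and coloured points are the 10 genes by role. Dnajb1, Hsp90aa1, Fkbp4 and Fkbp5 sit together at 849 to 939 bp and folds of 11.3 to 12.3.

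Promoter windows of 300 bases, from 250 before to 50 after a RefSeq start, were matched for 7 of the 10 genes. Hsp90aa1, Hsp90ab1 and Hspa8 were not matched. In all 7 the start lay inside a peak, against 37.8% of the protein-coding genes with such windows. The whole window lay inside the peak at 4 of the 7 (Bag1, Dnajb1, Ptges3 and Stub1), against 29.3% of the 7206 windows whose start was in a peak. Fkbp5 followed with 96.3% of the window in the peak and Fkbp4 with 92.0%, while Stip1 had 16.7%. Their GC content had a median of 68.3%, against 56.7% over all 21045 windows of protein-coding genes and 65.7% over windows whose start was in a peak. The ratio of observed to expected CpG dinucleotides, a measure of CpG islands, had a median of 0.895, against 0.574 and 0.849. Within the GC range of the 7 windows (56.3 to 73.7%), 57.2% of 9509 windows had their start in a peak, compared with 34.2% of all windows. GC content thus moved with the presence of a peak, and its part in the count of 7 of 7 was not tested.

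Matches were counted in the 300-base windows on both strands. GC boxes were present in 7 of 7 windows, against 46.7% of all windows and 78.9% of those whose start was in a peak. CCAAT boxes were present in 4 of 7 (Fkbp4, Fkbp5, Stip1 and Dnajb1), against 38.5% and 37.0%. The heat shock core was present in 2 of 7, against 13.8% and 8.66%. A complete heat shock element of 3 alternating units was in none of the 7, against 0.523% of all windows. A single arm of the steroid response element, AGAACA, was also in none of the 7 windows, against 16.3% and 8.42%. The window of the second, inner start of Dnajb1, which is not among the 7, held 1 match inside the peak. The inverted repeat with 3 bases between the arms was in none of the 7 either and was found in 2 of the 21045 windows. A match is a description of letters, and these windows leave out the rest of each gene.

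**Figure D4:**
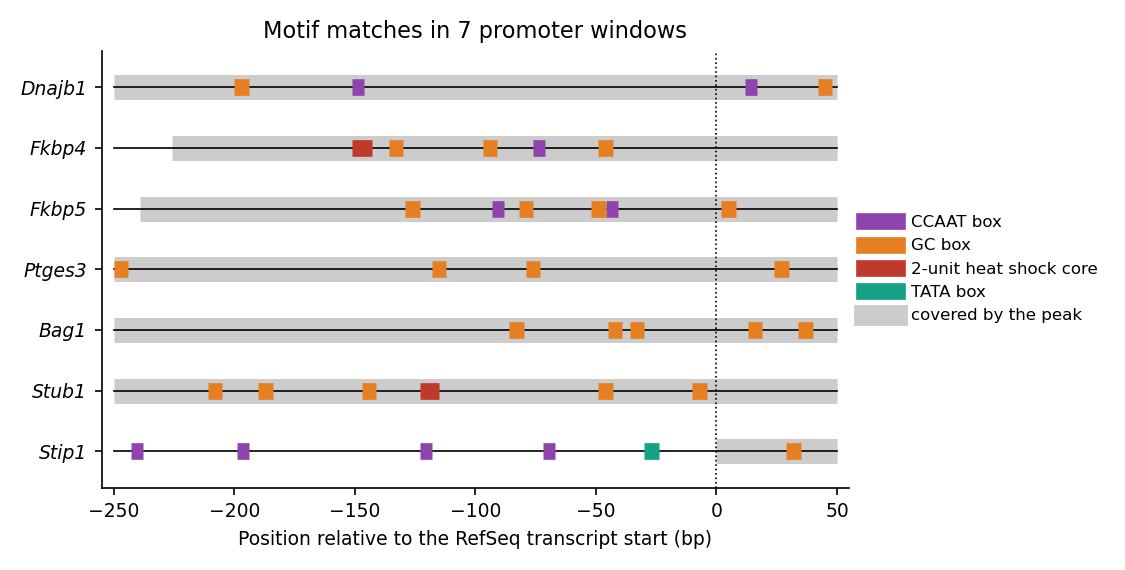
Motif matches (coloured blocks) along the promoter windows of the 7 genes with sequence, from 250 bp before to 50 bp after the transcript start (horizontal axis, bp), with genes ordered by fold. Grey bars show the part covered by the gene's peak. In Stip1 the 4 CCAAT boxes and the TATA box lie outside the peak, whereas all marked matches of the other 6 genes lie inside.

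The wider chaperone pathway was described from a list of 66 other genes, all of them matched. Most encode chaperones and co-chaperones, but 3 encode heat shock factors, which are transcription factors, and 2 encode prostaglandin E synthases. Of these, 51 (77.3%, 95% Wilson interval 65.8 to 85.7, counting error only) had a gene-end peak, beside the 44.5% of all protein-coding genes. The list was chosen with earlier results known and its genes can share a peak, so the interval is no test against that share. Over the 51 genes the strongest gene-end peak had a median fold of 7.11. At or above 8.34 were 14 of the 51 (27.5%), which is near the 25% of all genes with a gene-end peak. J proteins had a gene-end peak in 9 of 9, the Bag proteins and other Hsp70 partners in 7 of 7, Hsp90 partners in 14 of 19, FK506-binding proteins in 7 of 10 and the Hsp70 family in 7 of 10. The organelle forms of Hsp90 had one in 2 of 2 and the mitochondrial chaperonins in 2 of 2. Heat shock factors had one in 2 of 3, prostaglandin E synthases in 1 of 2 and small heat shock proteins in 0 of 2. The highest folds were at Hspd1 and Hspe1, the chaperonin pair, which share 1 peak (11.6), and at Fkbp9 (11.5), an endoplasmic reticulum immunophilin. Bag5 (11.4), Hsf1 (11.3), the master factor of the heat shock response, and Hspa4l (10.9) came next. The Bag5 peak also overlapped the window of Coa8 and the Hsf1 peak that of Bop1. The Hspa4l summit lay 959 bp from the gene's end. In the span extended by 10 kb, 58 of the 66 genes had a peak, beside 57.6% of all protein-coding genes. Of the 8 genes with no peak in that span, the first by name were Ahsa1, an activator of the Hsp90 ATPase, Fkbp11 and Hspa13.

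**Figure D5:**
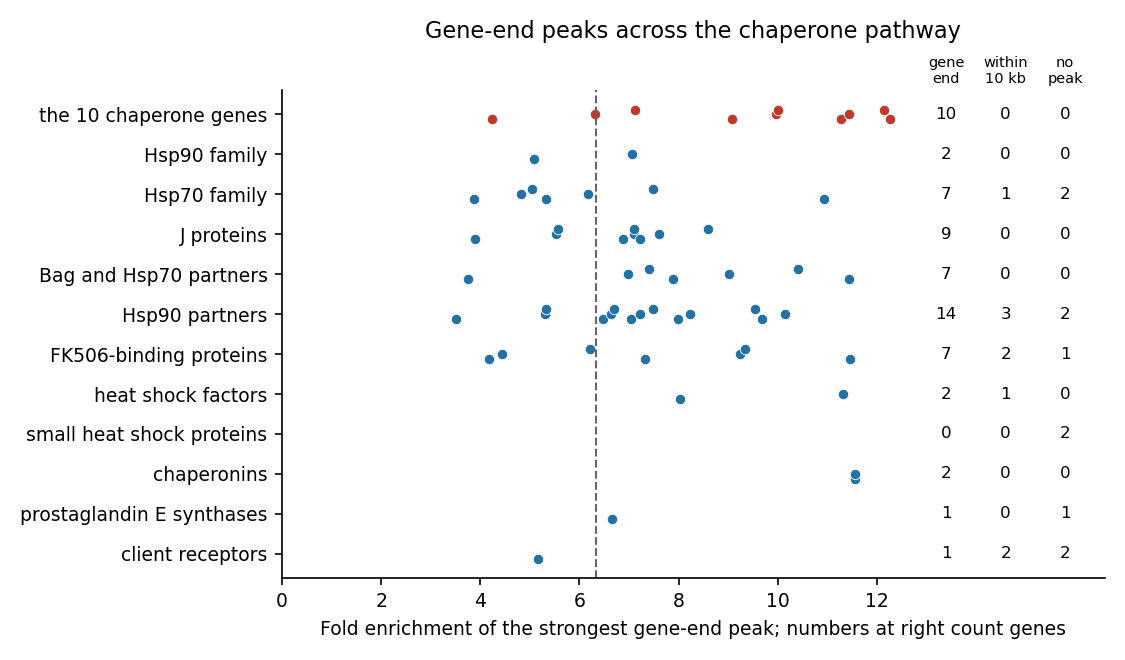
Fold enrichment (horizontal axis) of the strongest gene-end peak for the 10 chaperone genes (red), for 66 other genes of the chaperone pathway by family, and for 5 client receptors (blue). Each point is a gene, the dashed line is the median of 6.33 over all genes with a gene-end peak, and the numbers at right count genes with a gene-end peak, with a peak only elsewhere within 10 kb, and with no peak. All 10 of the chaperone genes and 1 of 5 receptors have a gene-end peak.

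Among 5 genes of receptors that these chaperones serve, 1 had a gene-end peak, beside 44.5% of all protein-coding genes, and 3 had a peak in the span extended by 10 kb, beside 57.6%. The gene-end peak was at Nr3c2, the mineralocorticoid receptor (fold 5.17), and its summit lay 1110 bp from the annotated end. Pgr, the progesterone receptor, had a peak of fold 5.05 inside the gene, 2914 bp from an end, and Nr3c1, the glucocorticoid receptor, had one of fold 7.74 inside the gene, 29468 bp from an end. Esr1 and Esr2, the oestrogen receptors, had no peak in the span extended by 10 kb. Gene ends are the outermost annotated positions, and whether the peaks inside Pgr and Nr3c1 lie at inner transcript starts was not tested. The strongest peak in that span had a median fold of 9.99 over the 10 chaperone genes and 6.61 over all protein-coding genes with one. For Hsp90ab1 this was the peak at the end of Slc35b2 (fold 9.87). All 3 receptor peaks were below 9.99, and only that of Nr3c1 was above 6.61.

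As a check of the tissue label, 15 genes of uterine cell types were looked up. A gene-end peak was listed for 4 of them: Hoxa11, the muscle gene Des, and the epithelial genes Wnt7a and Epcam. Another 3, Pgr, Hoxa10 and the collagen gene Col1a1, had a peak elsewhere in the span extended by 10 kb. The remaining 8 had none: Esr1, the muscle genes Acta2 and Myh11, the gland factor Foxa2, Krt8, Vim, and the vessel and leukocyte markers Pecam1 and Ptprc. The gene-end peak of Hoxa11 was also counted for Hoxa10, with its summit 4332 bp outside that gene. A peak counted for Col1a1 had its summit 7230 bp outside the gene. At 4 of 15, the markers' share of gene-end peaks was below the 44.5% of all protein-coding genes. A peak in the span extended by 10 kb was listed for 7 of 15, beside 57.6% of all protein-coding genes. Neither difference was tested.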

How the data were processed

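Whole uteri of 3 mice on gestation day 4 were processed for FAIRE-seq. Frozen tissue (100 mg) was crosslinked for 9 min in 1% formaldehyde and sheared to about 300 bp, per the labels' protocols, and DNA left in the aqueous phase of a phenol-chloroform extraction was sequenced. The series' own design entry describes RNA sequencing instead. Per the submitters' processing notes, FastQC, Bowtie2, HOMER and MACS2 were used with build GRCm38.p5. Not given in the sources used here are versions, call threshold, control and pooling. The authors deposited 1 peak table with, per the file headers, the pileup (a coverage signal), the fold enrichment (a ratio) and the −log10 p-value and −log10 q-value of each peak. Depth per sample is unknown.

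Genes came from the RefSeq table of GRCm38.p6, used for names and distances, without 340 genes placed on scaffolds (start below 3 Mb). Its patch level differs from that of the peaks. Promoter sequences came from RefSeq, GRCm38.p6. An overlap of at least 1 base assigned a peak to a gene, so neighbours can share one. Gene ends were the outermost annotated start and end, so a peak at an inner transcript start can count as lying inside the gene. Local background was (pileup + 1) / fold − 1. The overlap and motif procedures were tested on simulated data. Python 3.11.15, pandas 2.3.3, numpy 2.4.6, scipy 1.17.1 and matplotlib 3.10.9 were used.

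With 1 list and no sample columns, no test between samples and no analysis leaving out a mouse could be made. The 10 genes and all lists were chosen with earlier results of these data known. Genes named were the 10 genes; among the other genes of the chaperone pathway the 6 of highest fold and the first 3 by name without a peak; 5 client receptors (1 more that the rule selects is not reported here); neighbours sharing a peak; and the 3 genes most like Fkbp4 and Fkbp5 each. All 15 tissue markers are named, and Hsf2, Fkbp14 and Fkbp2 were named after their values were seen. Alternative windows, peak sets, overlap rules and motif lengths were tried.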

Additional observations from a re-analysis of the deposited data

How the results depend on the processing

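All 10 genes kept a gene-end peak with windows of 500 bp and 5 kb, with the summit required in the window, and when a peak was counted only for the nearest protein-coding end. Leaving out peaks of local background over 50 could remove none of theirs, which lie between 9.37 and 13.2. Over these settings the share of all protein-coding genes ran from 39.4 to 51.9%. With only the peaks at or above the median fold, or the median −log10 q, the count was 9 of 10 (90%, beside 26.2% and 26.0% of all genes), and Stip1 was the gene lost. The number of peaks was 38 with 50 kb on either side in place of 14 within 10 kb. It was between 10 and 14 under the other alternatives. The median percentile of the 10 genes among genes with a gene-end peak was 88.5 by fold, 92.8 by pileup and 91.9 by −log10 q. Of the 66 other genes of the pathway, 56.1% had a gene-end peak at or above the median fold, beside 26.2% of all genes. Heat shock elements were in 0 of 7 promoters with 3 units and in 2 with 2 units. No paired analysis was possible because the list has no values per mouse and the series has 1 group.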

Other observations

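Within 50 kb of the 10 genes the number of peaks varied widely. Fkbp4 and Hspa8 had only the peak at their own end, Bag1 had 2, and Fkbp5 and Hsp90aa1 had 3 each. Stip1 had 4, Ptges3 and Dnajb1 5 each, Hsp90ab1 6 and Stub1 8. The stretch around Stip1 also held Fkbp2, an FK506-binding protein gene. Its gene-end peak (fold 7.32, 1048 bp wide) had a higher fold than that of Stip1, and also overlapped the window of LOC114841036. Fkbp2 was picked out after its values were seen.

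Among the other genes of the chaperone pathway without a gene-end peak, Hsf2, which encodes a heat shock transcription factor, had a peak of fold 12.6 inside the gene, 2577 bp from its annotated end, and Fkbp14, an endoplasmic reticulum immunophilin, one of fold 10.0 inside the gene, 2110 bp from its end. Both were above the folds of 6 or more of the 10 genes described here, and both were picked out after their values were seen. Whether these peaks lie at inner transcript starts was not tested.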
